A study of Rattus norvegicus with 14 samples.

Results

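Cd74, RT1-Da and B2m, 3 genes of antigen presentation, were followed through glomeruli of the Dahl salt-sensitive rat. The members were chosen by Ensembl ID from the table of raw counts, ENSRNOG00000018735 for Cd74, ENSRNOG00000032844 for RT1-Da and ENSRNOG00000017123 for B2m. All 3 IDs were present, of 12934 IDs in the table, and 0 were absent. The deposited files do not pair IDs with names, and 0 of the 12934 IDs matched the RefSeq gene table used here, so the 3 names rest on the list of IDs itself.

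Cortical glomeruli were sieved from kidneys of male rats of the inbred strain Dahl SS/JrHsdMcwiCrl, which develops high blood pressure when salt intake is raised. Rats began the diets at 8 weeks of age and stayed on them for 21 days. The high salt group (7 libraries) ate 4% NaCl and the normal salt group (7 libraries) ate 0.4% NaCl, and the strain, sex, tissue and duration were common to both. Each library carries a number between 9 and 24 in its label, odd on high salt and even on normal salt. The labels do not state what the number records, nor that each library is a separate rat, so p-values measure the spread between libraries, which may be partly technical. No genotype or transgene was varied in this series.

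MHC class II molecules are pairs of an alpha and a beta chain that show peptides from engulfed proteins to CD4+ T cells. RT1-Da encodes the alpha chain of RT1-D, the rat class II molecule related to human HLA-DR. Cd74 encodes the invariant chain, which guides newly made class II molecules to the endosome and fills their groove on the way. B2m encodes beta-2-microglobulin, the light chain that class I molecules need to reach the surface of nearly every nucleated cell. Dendritic cells, macrophages and B cells are the main class II-bearing cells of the resting kidney, while class I and its light chain are made by resident glomerular cells as well. Class II genes and Cd74 share the X and Y boxes, promoter elements bound by the RFX and NF-Y complexes and served by the coactivator CIITA, and B2m is also driven through interferon and NF-kappa B elements.

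The promoter sequences are shown because Cd74 and RT1-Da matched the X box core and B2m did not. The other elements did not divide the 3 genes in this way: all 3 matched the Y box, in B2m past the annotated start of the gene, and Cd74 and B2m matched the kappa B core. Levels over the libraries are compared in the rest of the text. The printed stretches are RefSeq sequences of the GRCr8 build, each ending at the base before the annotated start of the gene. Capitals mark matches, on either strand, to the Y box ATTGG, the X box core CCTAGNNAC, the interferon response core (GAAA, any 2 bases, GAAA) or the kappa B core (GGGAN directly followed by TTNCC), where N is any base.
Cd74, chr18:56526956-56527070, plus strand: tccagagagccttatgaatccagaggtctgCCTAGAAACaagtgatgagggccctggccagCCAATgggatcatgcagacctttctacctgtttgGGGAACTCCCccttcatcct
RT1-Da, chr20:4515237-4515392, plus strand: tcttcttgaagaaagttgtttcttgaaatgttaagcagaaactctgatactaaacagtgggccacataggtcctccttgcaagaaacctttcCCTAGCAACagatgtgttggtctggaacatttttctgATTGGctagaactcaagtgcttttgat
B2m, chr3:129549080-129549235, plus strand: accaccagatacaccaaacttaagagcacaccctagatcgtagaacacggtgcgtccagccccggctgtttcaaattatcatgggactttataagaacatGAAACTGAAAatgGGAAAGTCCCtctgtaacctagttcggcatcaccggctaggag

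The promoters of Cd74 and RT1-Da each held an X box core and a Y box, and that of B2m held no X box core. In Cd74 the 2 elements lay 22 bases apart and in RT1-Da 28 bases apart, with the Y box of Cd74 on the minus strand. Of the 33469 rat promoter windows of 300 bases in the same RefSeq table, 4.34% held the X box core, 37.5% the Y box and 0.517% both within 30 bases of each other. The limit of 30 bases was chosen after the members' spacing was seen. B2m had an interferon response core, found in 3.92% of all windows, followed by a kappa B core, found in 1.11%, and a Y box further on. That Y box lies beyond the printed stretch, past the annotated start of the gene, at -64 relative to the start site on which the window was set. Cd74 also matched the kappa B core, while RT1-Da matched neither of these cores. No motifs overlapped in the printed sequences. These matches describe letters in a window and were not tied to binding of any factor in these rats.

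B2m was among the most abundant transcripts of the glomerular preparations, Cd74 was about an order of magnitude lower, and RT1-Da was the lowest of the 3. Levels are CPM, the count of a gene scaled to the size of its library, after correction of library totals by trimmed mean of M-values (TMM) factors. The kit primes at the poly(A) tail and gives tags near the 3' end, so levels were not divided by transcript length, and whether the 3' ends of the 3 genes were annotated equally well was not tested. Over the 14 libraries B2m averaged 3685 CPM and ranked 14 of 12934 genes. Cd74 averaged 409.9 CPM and ranked 162, above 98.7% of the genes, and RT1-Da averaged 147 CPM and ranked 712, above 94.5%. The order B2m, Cd74, RT1-Da held in 14 of 14 libraries.

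RT1-Da varied far more between libraries than B2m. Its highest library exceeded its lowest by 7.44 times, against 3.47 times for Cd74 and 1.68 times for B2m. The coefficient of variation over the libraries was 46.4% for RT1-Da, 32.8% for Cd74 and 17.1% for B2m. RT1-Da was counted between 765 and 4496 times per library, and the Poisson standard error of a count was at most 3.62% of its value. The biological coefficient of variation fitted by edgeR, which leaves out counting error and diet, was 43.6% for RT1-Da, above 89.2% of the 11158 genes tested, 29.5% for Cd74 and 19.5% for B2m, where the median gene had 23.9%. RT1 genes form a family of similar sequences, and how reads shared between members were counted is not given in the sources used here, so the RT1-Da values carry that uncertainty. In whole glomeruli a change in the number of cells of a type and a change in RNA per cell cannot be told apart.

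Libraries held 13797146 to 18151197 counts, and the 10 most abundant genes took 30.79% to 64.85% of them, the lowest in number 21 and the highest in number 15, both on high salt. TMM factors ran from 0.66 in number 15 to 1.29 in number 21. Markers of glomerular, tubular and immune cells could not be looked up by name here, so the tissue label was not checked against them and the cells that carry the 3 transcripts were not identified. For the same reason, the lists of further class I, class II and interferon genes were not analysed here.

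**Figure D1:**
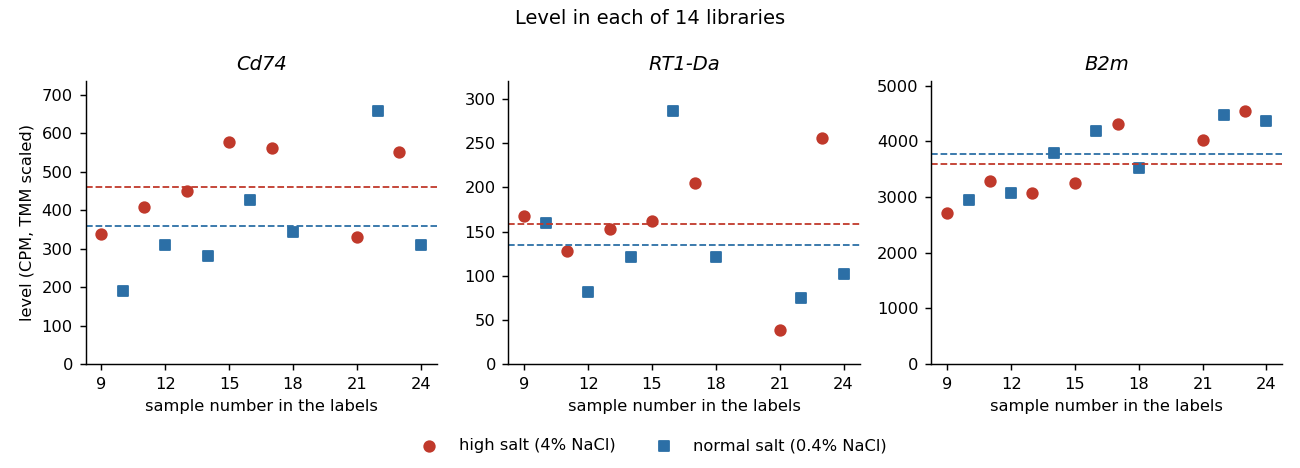
Level of each gene (CPM, TMM scaled, linear axes from 0) against the sample number in the labels, with 7 high salt libraries as red circles, 7 normal salt libraries as blue squares and dashed lines at the mean of each diet. B2m climbs with the number in both diets, RT1-Da is highest in numbers 16 and 23 and lowest in number 21, and the diets overlap for every gene.

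Cd74, the class II chaperone, had a higher mean on high salt, but the difference did not pass the test. On high salt its lowest library was at 329.6 CPM (number 21), its median at 450.4 CPM and its highest at 579 CPM (number 15). On normal salt the lowest was at 189.5 CPM (number 10), the median at 311 CPM and the highest at 657 CPM (number 22). All 7 high salt libraries lay above the normal salt median, yet the groups overlapped: normal salt number 22 exceeded every high salt library, and numbers 16 (426 CPM) and 18 (344 CPM) of normal salt also exceeded the lowest of them. The means were 459.9 ± 106 CPM for the 7 high salt and 360 ± 149 CPM for the 7 normal salt libraries (SD). The log2 fold change was 0.35 ± 0.22 (SE), with a 95% interval from -0.12 to 0.82, that is 0.921- to 1.77-fold (edgeR quasi-likelihood test, unadjusted p = 0.132, Benjamini-Hochberg adjusted p = 0.9997 over 11158 genes). Without normal salt number 22, the omission that gave the largest difference, it was 0.57 in log2 with a 95% interval from 0.181 to 0.955. It did not pass after adjustment (edgeR, unadjusted p = 0.00678, adjusted p = 0.8061). Over all 14 libraries limma voom with quality weights gave 0.53, from 0.186 to 0.88 (unadjusted p = 0.0048, adjusted p = 0.8977). These intervals exclude 0 but are not adjusted for the number of genes.

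RT1-Da, the class II alpha chain, spread too widely in both diets for a difference to be seen. On high salt its lowest library was at 38.4 CPM (number 21), its median at 162 CPM and its highest at 256 CPM (number 23). On normal salt the lowest was at 75 CPM (number 22), the median at 121 CPM and the highest at 286 CPM (number 16). The extremes of both groups overlapped, with the overall lowest library on high salt and the overall highest on normal salt. The means were 158 ± 67.2 CPM for high salt and 135 ± 72.3 CPM for normal salt (SD over 7 libraries each). The log2 fold change was 0.23 ± 0.34 (SE), with a 95% interval from -0.49 to 0.94 or 0.713- to 1.92-fold (edgeR, adjusted p = 0.9997). It moved to 0.53 without normal salt number 16, to 0.41 without high salt number 21, to 0.12 without normal salt number 22 and to 0.07 without high salt number 23. Leaving out normal salt number 12 gave 0.14, and none of these omissions made it pass (edgeR adjusted p from 0.957 to 1 over 14 omissions).

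B2m, the class I light chain, was held within the narrowest limits of the 3 between diets. On high salt it ran from 2707 CPM (number 9) through a median of 3296 CPM to 4541 CPM (number 23), and on normal salt from 2949.5 CPM (number 10) through 3792 CPM to 4469.5 CPM (number 22). Apart from the single lowest and the single highest high salt library, every high salt value lay inside the normal salt range. The means were 3602 ± 689 CPM for high salt against 3768 ± 609 CPM for normal salt (SD over 7 libraries each). The log2 fold change was -0.07 ± 0.15 (SE), with a 95% interval from -0.37 to 0.24 (edgeR, adjusted p = 0.9997). Differences of either sign inside these bounds remain compatible with the values. Leaving out single libraries moved the difference between -0.13 (without high salt number 23) and -0.01 (without high salt number 9), and edgeR called none of the 14 refits.

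None of the 3 genes was called for diet, where 0% of the 11158 genes tested were called in either direction by edgeR at an adjusted p below 0.05 and 1.81% had an unadjusted p below 0.05. DESeq2 also called 0 genes. The median absolute log2 fold change over all tested genes was 0.108, against 0.353 for Cd74, 0.228 for RT1-Da and 0.065 in size for B2m. In the authors' deposited table the high salt to normal salt fold of the means was 1.28 for Cd74 and 1.173 for RT1-Da, and the signed fold of B2m was -1.045, a lower mean on high salt.

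**Figure D2:**
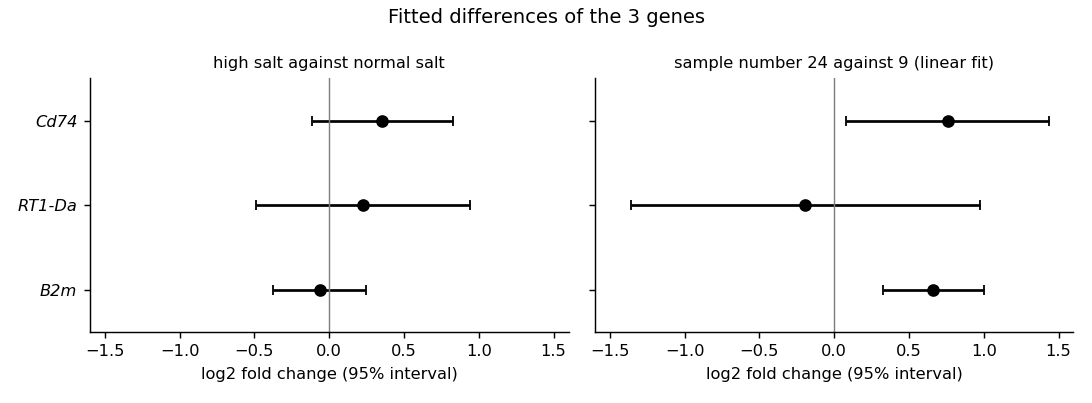
Fitted log2 fold change of each gene with its 95% interval (edgeR), for high salt against normal salt (left) and for a linear change from sample number 9 to 24 with diet in the model (right). The 3 diet intervals include 0, and on the right that of B2m runs from 0.326 to 1.001, that of Cd74 from 0.079 to 1.437 and that of RT1-Da from -1.357 to 0.973.

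B2m was higher in libraries with higher numbers in both diets. The linear fit with diet in the model gave a log2 change of 0.66 ± 0.16 (SE) from number 9 to 24, a 1.58-fold rise with a 95% interval from 1.25 to 2 (edgeR, unadjusted p = 0.000709, adjusted p = 0.01869). Of the 11158 tested genes, 12.7% were called for the number, 6.97% as higher and 5.74% as lower at higher numbers, and 32% had an unadjusted p below 0.05. B2m, called as higher, was 1 of many such genes and the only one of the 3 members called. In the low numbers 9, 10, 11, 12 and 13 B2m stood between 2707 and 3296 CPM. In the highest numbers 21, 22, 23 and 24 it stood between 4018 and 4541 CPM, with no overlap between these ends. The numbers between, 14 to 18, ran from 3255 CPM (number 15) to 4314 CPM (number 17) and overlapped both ends. As a description over the 14 libraries, Pearson r with the number was 0.878 (0.901 on high salt and 0.854 on normal salt, 7 libraries each).

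The B2m call was missed with no scaling factor and without number 9 or 10, though the size of the change moved little. It held with RLE and upper quartile factors (edgeR adjusted p = 0.0201 and 0.01735), and with DESeq2 and limma (adjusted p up to 0.02846). Without high salt number 9 the log2 change was 0.62 (edgeR adjusted p = 0.05291), and without normal salt number 10 it was 0.64 (edgeR adjusted p = 0.05332). With plain library totals and no factor, a fit added after the data were seen, it was 0.72 (edgeR adjusted p = 0.1085). With totals that leave out the 10 most abundant genes it was 0.64 (edgeR adjusted p = 0.01936). Total counts also followed the number (r = 0.469) and B2m (r = 0.608) over the 14 libraries, while the share of the 10 most abundant genes did not move with B2m (r = -0.012). The part of these in the result was not tested.

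Cd74 had a positive fitted change with the number that did not pass, and RT1-Da had none that could be resolved. For Cd74 the log2 change from number 9 to 24 was 0.76 ± 0.32 (SE; edgeR, unadjusted p = 0.0309, adjusted p = 0.1168). It fell to 0.44 without normal salt number 22, the library with the highest Cd74. It rose to 0.96 without high salt number 21 (edgeR adjusted p = 0.05711) and to 0.99 without normal salt number 24 (edgeR adjusted p = 0.06028). For RT1-Da it was -0.19 ± 0.55 (SE; edgeR, adjusted p = 0.836), with a 95% interval that spans 0.39- to 1.96-fold. The sign of the RT1-Da change was set by single libraries: it was 0.12 without high salt number 21, 0.02 without normal salt number 22 and -0.92 without high salt number 23. It was -0.12 without normal salt number 10, -0.29 without high salt number 11, -0.34 without normal salt number 12 and -0.04 without normal salt number 24. The change with the number did not differ between diets for any of the 3 genes beyond its error (edgeR interaction term, adjusted p = 0.9981 for each, added after the data were seen). The difference in log2 change, high salt minus normal salt, had 95% intervals from -2.15 to 0.54 for Cd74, from -1.52 to 3.26 for RT1-Da and from -0.57 to 0.83 for B2m.

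With the number taken into account, the diet difference of Cd74 still did not pass the test. With the number as a covariate it was 0.44 ± 0.20 (SE; edgeR, 95% interval from 0.025 to 0.857, unadjusted p = 0.0389, adjusted p = 0.961). In numbers 9 to 16 alone, 4 libraries per diet, it was 0.56 (edgeR, 95% interval from 0.029 to 1.084, unadjusted p = 0.0404, adjusted p = 0.9573). In numbers 17 to 24, 3 libraries per diet, it was 0.14 (edgeR adjusted p = 0.999). RT1-Da differed by -0.09 in the low range and 0.74 in the high range, and B2m by -0.18 and 0.06, and the 95% intervals of these 2 genes in both ranges included 0. With the number as a covariate RT1-Da differed by 0.225 (edgeR, 95% interval from -0.493 to 0.943). B2m then differed by -0.027 (edgeR, 95% interval from -0.24 to 0.186), a narrower interval than in the fit of diet alone.

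Cd74 and RT1-Da, whose products work in the same complex, showed no correlation that passed the test over the 14 libraries. Pearson r of their log2 CPM was 0.22 (permutation p = 0.449, adjusted p = 0.673 over 3 pairs) and Spearman rho was 0.336 (permutation p = 0.24, adjusted p = 0.36). Of the single omissions, those of normal salt numbers 22 and 10 gave the highest r, 0.418 and 0.363. Number 22 combined the highest Cd74, 657 CPM, with the lowest RT1-Da of its diet, 75 CPM, and number 10 combined the lowest Cd74, 189.5 CPM, with 159 CPM of RT1-Da. Without these 2 libraries, the farthest from the Cd74 median, r was 0.623 (permutation p = 0.0262). They were picked by the same Cd74 values that the correlation uses, so this p-value is no separate support. Within high salt r was 0.691 (7 libraries, exact permutation p = 0.0339), and within normal salt it was -0.22 (exact permutation p = 0.617). The p-values without the 2 libraries and within the diets are unadjusted, and the difference between the diets was not tested.

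Neither class II gene could be tied to B2m. For Cd74 with B2m r was 0.452 (permutation p = 0.104, adjusted p = 0.312) and rho was 0.433 (permutation p = 0.124, adjusted p = 0.36). Without numbers 10 and 22, which hold the lowest and the highest Cd74, r fell to 0.193 (permutation p = 0.538). Within high salt it was 0.424 (exact permutation p = 0.319) and within normal salt 0.739 (exact permutation p = 0.0498). For RT1-Da with B2m r was -0.023 (permutation p = 0.938, adjusted p = 0.938) and rho was -0.029 (permutation p = 0.928, adjusted p = 0.928), it was -0.01 without numbers 16 and 21 (permutation p = 0.975), and it was -0.005 on high salt (exact permutation p = 0.993) and -0.001 on normal salt (exact permutation p = 0.997). After diet and number were removed from each gene, the 3 correlations were 0.348 for Cd74 with RT1-Da, 0.34 for Cd74 with B2m and 0.411 for RT1-Da with B2m, given as a description without a test.

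**Figure D3:**
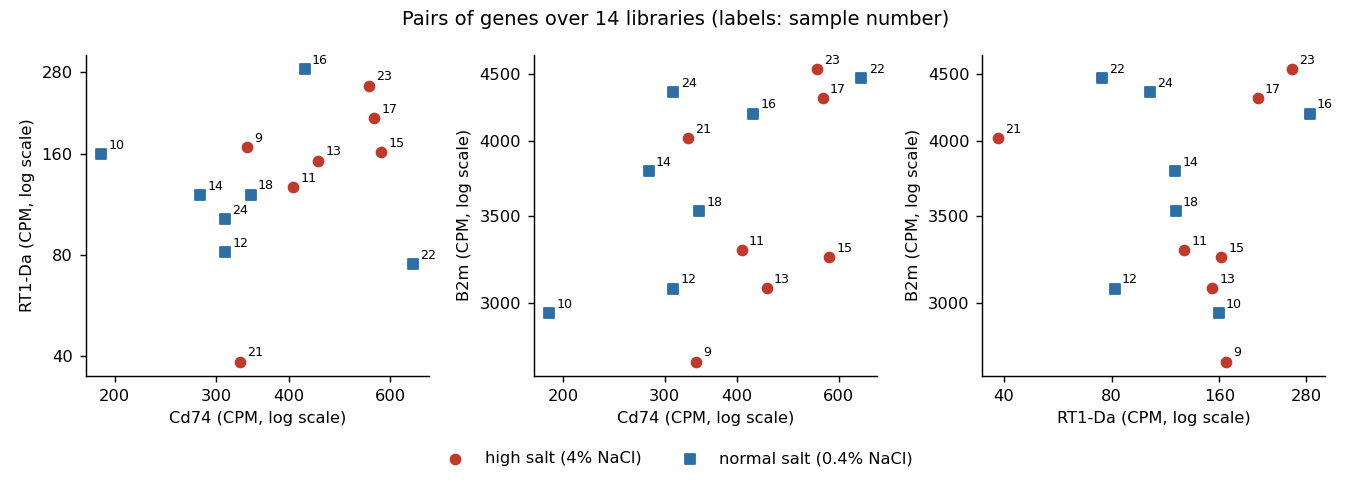
Levels of each pair of genes over the 14 libraries (CPM, log axes), red circles for high salt and blue squares for normal salt, each labelled with its sample number. In the panel of Cd74 and RT1-Da, numbers 22 and 10 of normal salt have the highest and the lowest Cd74, and number 21 of high salt has the lowest RT1-Da.

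Many other genes followed Cd74 more closely than RT1-Da did. Among the 11157 other tested genes, RT1-Da ranked 3791 by its correlation with Cd74, so that 34% of genes correlated at least as well, and B2m ranked 1887. Seen from RT1-Da, Cd74 ranked 3300 and B2m 5617. Among 8174 genes averaging 5 CPM or more, with the members left out, the closest reached r = 0.961 with Cd74, r = 0.968 with RT1-Da and r = 0.977 with B2m. Each is the highest of 8174 values over 14 libraries, and the highest r that a typical gene reaches was not examined. The 2 IDs with the highest mean correlation with Cd74 and RT1-Da were ENSRNOG00000000451, with r = 0.734 and r = 0.742, and ENSRNOG00000012804, with r = 0.661 and r = 0.81. Both were highest in number 17 and lowest in number 21, and neither ID is paired with a name in the files. These r values are descriptions over 14 libraries that share depth, scaling and the order by number.

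**Figure D4:**
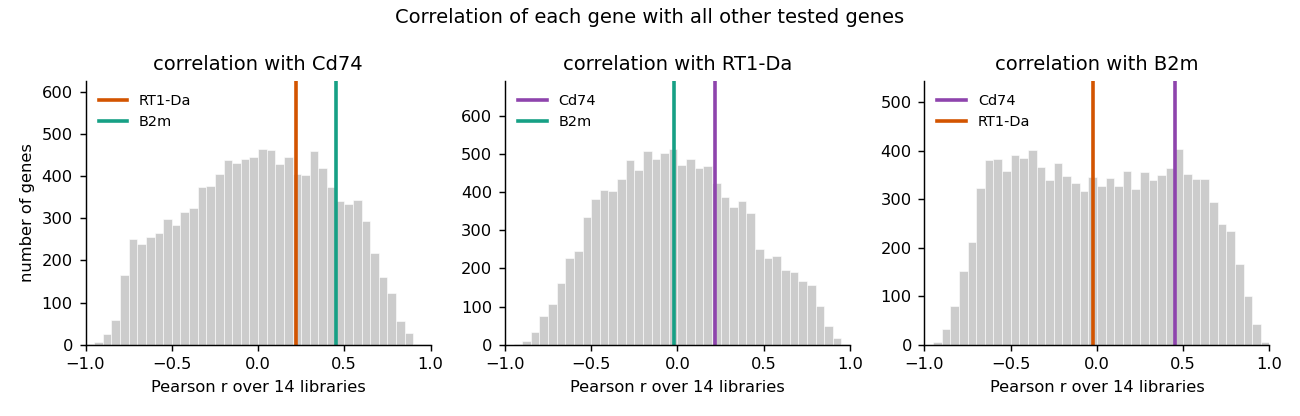
Number of tested genes (bars, bins of 0.05) by Pearson r with Cd74, RT1-Da or B2m over the 14 libraries, with coloured lines at the other members. The lines at 0.22, 0.452 and -0.023 fall inside the bulk of each distribution and not in its right tail.

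RT1-Da was compared with the composition of the libraries. Its r with the share of counts in the 10 most abundant genes was 0.613, against 0.379 for Cd74 and -0.012 for B2m, over 14 libraries and as a description. In number 21, where that share was lowest at 30.79%, RT1-Da was at its lowest, and in number 16, where RT1-Da was highest, the share was 51.84%. At other low shares, number 9 had 37.42% with 167 CPM and number 22 had 37.75% with 75 CPM. RT1-Da was high in some libraries with high shares and not in others. Number 15 had 64.85% with 162 CPM and number 11 had 53.73% with 127 CPM. Number 17 had 52.17% with 205 CPM, number 18 had 52.04% with 121 CPM and number 23 had 50.15% with 256 CPM. The part of this composition in the RT1-Da values was not tested.

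Ratios between members within a library do not depend on the scaling factor. The ratio of Cd74 to RT1-Da counts had a median of 2.9 and ran from 1.19 (normal salt number 10) to 8.76 (normal salt number 22), with 8.58 in high salt number 21. Apart from the latter 2 libraries it stayed at or below 3.81. The mean log2 ratio was 1.68 ± 0.69 for high salt and 1.46 ± 0.94 for normal salt (SD over 7 libraries each; exact permutation test, two-sided over 3432 splits, p = 0.624, adjusted p = 0.624 over 3 ratios). The difference of 0.22 reversed to -0.02 without high salt number 21 and was 0.50 without normal salt number 22.

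The ratio of B2m to Cd74 had a lower mean on high salt, a difference that did not pass after adjustment. It ran from 5.62 (high salt number 15) to 15.6 (normal salt number 10) with a median of 9.01. The mean log2 ratio was 2.98 ± 0.34 for high salt and 3.46 ± 0.41 for normal salt (SD over 7 libraries each), which differ by -0.48 (exact permutation test, two-sided, p = 0.0338, adjusted p = 0.101). High salt number 21, at 12.2, and normal salt number 22, at 6.8, went against their groups. Without number 22 the difference was -0.60 (exact permutation adjusted p = 0.0262), and without number 21 it was -0.59 (exact permutation adjusted p = 0.0332). These 2 libraries are singled out by the same ratios that the test uses. Theirs were the only 2 of 14 single omissions that passed (exact permutation adjusted p up to 0.212 over the 14). In numbers 9 to 16 the 4 high salt libraries lay between 5.62 and 8.08 and the 4 normal salt libraries between 9.84 and 15.6, without overlap (exact permutation p = 0.0286, the smallest that 4 against 4 can give, adjusted p = 0.0857). In numbers 17 to 24, with 3 per diet, the ranges were 7.66 to 12.2 and 6.8 to 14 (exact permutation p = 0.8, where 0.1 is the smallest possible). The ranges of numbers were examined for these ratios after the data were seen.

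The ratio of B2m to RT1-Da ran from 14.7 (normal salt number 16) to 105 (high salt number 21), a 7.13-fold range beside 7.37-fold for Cd74 to RT1-Da. Its mean log2 was 4.66 ± 0.93 for high salt and 4.93 ± 0.70 for normal salt (SD over 7 libraries each; exact permutation test, two-sided, p = 0.565, adjusted p = 0.624). The difference was -0.60 without high salt number 21 and -0.10 without normal salt number 22. Against the sample number, the log2 ratio of B2m to RT1-Da had r = 0.497 (permutation p = 0.0679, adjusted p = 0.14; rho = 0.411, permutation p = 0.145). That of Cd74 to RT1-Da had r = 0.465 (permutation p = 0.0936, adjusted p = 0.14; rho = 0.314, permutation p = 0.273), and that of B2m to Cd74 had r = 0.053 (permutation p = 0.854, adjusted p = 0.854; rho = 0.051, permutation p = 0.866). Numbers 23 and 24 lie farthest from the median number. Without them the 3 r values, in the same order, were 0.666 (permutation p = 0.0164), 0.701 (permutation p = 0.00999) and -0.121 (permutation p = 0.702). This omission was not planned, and its p-values are unadjusted. It leaves numbers 21 and 22, where both ratios over RT1-Da were highest, at the top end of the numbers. Within the diets, 7 libraries each, r for B2m over RT1-Da was 0.423 on high salt and 0.588 on normal salt, and r for Cd74 over RT1-Da was 0.361 and 0.591 (lowest exact permutation p = 0.157).

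**Figure D5:**
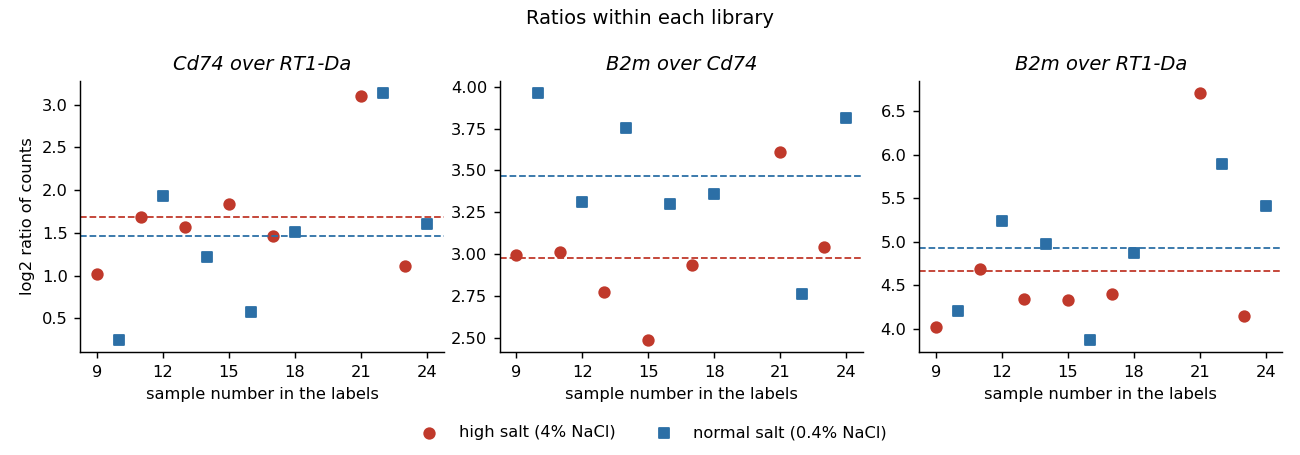
Log2 ratio of counts between pairs of genes in each library against the sample number, red circles for high salt, blue squares for normal salt and dashed lines at the mean of each diet. Numbers 21 and 22 stand highest in both ratios over RT1-Da, and in the middle panel the diets do not overlap at numbers 9 to 16 and do at numbers 17 to 24.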

How the data were processed

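Per the labels' protocols, TRIzol RNA went into the Lexogen QuantSeq FWD kit, which tags the 3' end, and onto an Illumina NextSeq instrument. The deposited count table lists 12934 rat Ensembl IDs with whole counts per gene. The authors also deposited a normalized signal, the counts divided by 1 constant per library, with the mean of each diet, a signed fold of the means and its log2. The submitters' processing notes name R 3.4.3, DESeq2 1.18.1 and GRCm38, a mouse build, although the IDs are from rat, and no build is assumed here for the counts. Aligner, counting program and handling of molecular identifiers: not given in the sources used here.

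Column names were matched to sample titles, and 0 columns were left unmapped. No 2 libraries of a diet were the same within sampling noise: over 42 pairs the chi-square per degree of freedom was at least 17.17. The whole count table was fitted in edgeR 4.0.16 (R 4.3.3) by the quasi-likelihood method in its robust form with TMM factors. Its default filter on low counts removed 1776 IDs, left 11158 and kept all 3 members. A gene was called where the adjusted p (Benjamini-Hochberg) was under 0.05. The F statistic gave standard errors and 95% intervals. The number enters as a linear term beside diet. Correlations used log2 CPM with a prior count of 2 and 100000 permutations, or all orders within a diet. The scripts were tested on simulated data with known changes. Alternatives used limma 3.58.1 and DESeq2 1.42.0.

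The members, the lists and the rules were chosen with earlier results of these data known. The rule for named genes was to print the 3 members and, since no ID could be named, at most 2 IDs with the highest mean correlation with Cd74 and RT1-Da.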

Additional observations from a re-analysis of the deposited data

Results flagged for a closer look

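RT1-Da stood at 286 CPM in normal salt number 16, far above the other 6 normal salt libraries, which lay between 75 and 159 CPM. In high salt number 21 the log2 ratio of Cd74 to RT1-Da was 3.1, while the other high salt libraries lay between 1.02 and 1.84. In the same library the log2 ratio of B2m to RT1-Da was 6.71, while the others lay between 4.02 and 4.69. Both ratios share the RT1-Da count of that library, 765, so they are not separate observations. In all, 12 groups of 7 libraries were examined for such gaps and 3 had one, where chance gives about 1 in 20 groups.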

How the results depend on the processing

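No alternative called a gene for diet, and none made a member pass for diet. The Cd74 difference kept its sign throughout, between 0.14 and 0.57. RT1-Da reversed in numbers 9 to 16 (-0.09) and B2m in numbers 17 to 24 (0.056). No number occurs in both diets and no label pairs the libraries. A replicate block of consecutive numbers gave 0.427 for Cd74, 0.2 for RT1-Da and -0.071 for B2m (edgeR adjusted p from 0.8528 to 0.95). Genes called for the number were 1418, against 2167 with DESeq2, 540 with library totals and no factor (added after the data were seen), and 451 (without normal salt number 22) to 2118 (without high salt number 23) over the 14 omissions. The other omissions that moved this count by over 1.5 times were high salt number 9 (547), normal salt number 10 (513), normal salt number 12 (762) and high salt number 21 (926). Over the omissions the change with the number ran from 0.62 to 0.72 for B2m and from -0.918 to 0.116 for RT1-Da. B2m missed the threshold without number 9 or 10 and, at 0.716, with no factor. For Cd74 the change ran from 0.443 to 0.988 and passed in no omission (edgeR adjusted p from 0.05711 to 0.3582). The correlation of RT1-Da with B2m ran from -0.184 to 0.123 over the omissions and was 0.411 after removal of diet and number. The other correlations ran from 0.126 to 0.418 (Cd74 with RT1-Da) and from 0.326 to 0.555 (Cd74 with B2m). The difference in log2 ratio between diets ran over the omissions from -0.016 to 0.499 for Cd74 over RT1-Da. For that ratio it was -0.194 in numbers 17 to 24. For B2m over Cd74 it ran from -0.601 to -0.402 over the omissions and passed after adjustment only without number 21 or 22. Correlations of the log2 ratios with the number ran from 0.35 to 0.59 for Cd74 over RT1-Da and from 0.418 to 0.663 for B2m over RT1-Da, both passing after adjustment, among these 14 single omissions, only without high salt number 23 (permutation adjusted p = 0.0494 and 0.0371), and from -0.152 to 0.273 for B2m over Cd74. The causes of these shifts were not tested. Tests of further pathway genes and cell markers were not run, since no ID could be named.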
